A study of Mus musculus with 15 samples.

Results

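The motile cilium and axoneme genes described here are 56 of the 18350 genes to which the probes of the array could be assigned. They were chosen by symbol: names that start with Dnah, Dnai, Dnal, Tekt, Rsph, Spag, Spef or Ift, and the genes Ccdc39, Ccdc40, Foxj1, Tmem212, Dynlrb2, Hydin, Mcidas, Rfx2 and Rfx3. Of the 71 genes in the RefSeq table whose symbol fits, 15 had no assigned probe, among them Ccdc40 and Mcidas. The 56 members are measured by 93 probes, 27 genes by more than 1, and each gene stands by its probe of highest mean signal.

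A motile cilium beats by means of its axoneme, a cylinder of microtubule doublets on which axonemal dynein arms walk, with radial spokes and a central pair that time the stroke. Such cilia cover airway, oviduct and ependymal cells, and the sperm tail is built in the same way, whereas heart muscle cells carry none. Their genes are switched on by Foxj1 and the Rfx factors, while the intraflagellar transport genes also build the immotile primary cilium that many cell types have.

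RNA from the hearts of 15 C57BL/6 mice was hybridised to Agilent single-colour mouse arrays, 1 mouse to an array, to ask how the heart responded to methamphetamine (meth) and whether males and females differed. There were 4 male and 4 female mice given meth and 4 male and 3 female controls given phosphate buffered saline (PBS), all 8 to 10 weeks old at the start and treated for 5 months. Meth hydrochloride was injected into the peritoneum 1 time a week, with 2 mg more each week up to 40 mg/kg at week 20, and the PBS mice were injected on the same schedule. Males came from 2 trials, with 2 arrays per treatment in each, and females from 1 trial. The sample titles place every female array in trial 1, but the source names of female meth replicates 3 and 4 and female PBS replicate 3 give trial 2. Slides 1 and 2 carried the trial 1 males and the first 4 female arrays, slide 3 the trial 2 males, and slide 4 those 3 female arrays, in 3 scan sessions. Values are log2 signals relative to the 75th percentile of their array, called normalized log2 signal below, and the number of arrays limits their precision. By the flag of the scanning software, an array had 61.3% to 71.4% of its 41174 probes well above background, most on the 3 arrays of slide 4. All 12 cardiomyocyte markers on the list used, with Myl2 the one of highest signal, were well above background on all 15 arrays, and their summed signal lay between 4130 and 6002 times the 75th percentile of the array.

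The hearts gave signal well above background for many but not all members, and the share measured on all 15 arrays is smaller than that of all genes. Of the 56 genes, 29 were well above background on all 15 arrays, 7 on none and 20 on some of them, where 12601 of all 18350 genes were on all and 3254 on none. All 15 intraflagellar transport genes are among the 29. The 7 genes seen on no array were Dnah10, Dnah11, Rsph4a, Spag11a, Spag16, Spag17 and Spef2, which are named here for that count and were picked after their values were seen. In the hearts given PBS, 30 of the 56 were well above background on all 7 arrays and 11 on none, where 12707 of all 18350 genes were on all and 3649 on none.

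More members were measurable in the hearts of males given meth than in those of males given PBS. The 4 male meth arrays had 41, 42, 39 and 39 members well above background (trial 1 replicates 1 and 2, then trial 2 replicates 1 and 2, the order used throughout). The 4 male PBS arrays had 32, 30, 34 and 33, so the groups did not overlap. Over all 18350 genes the share well above background was 73.1% to 74.1% on the male meth arrays and 71.4% to 72.9% on the male PBS arrays. The female meth arrays had 36, 33, 41 and 39 members and the female PBS arrays 34, 36 and 44. The 3 highest female counts are those of slide 4, where 76.8% to 79.3% of all genes were well above background, against 71.7% to 73.9% on the other 4 female arrays. By group, 38 members were well above background on every male meth array, 30 on every male PBS array, 33 on every female meth array and 34 on every female PBS array. Members outside intraflagellar transport account for the whole of that spread, since all 15 transport genes were seen on every array.

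**Figure D1:**
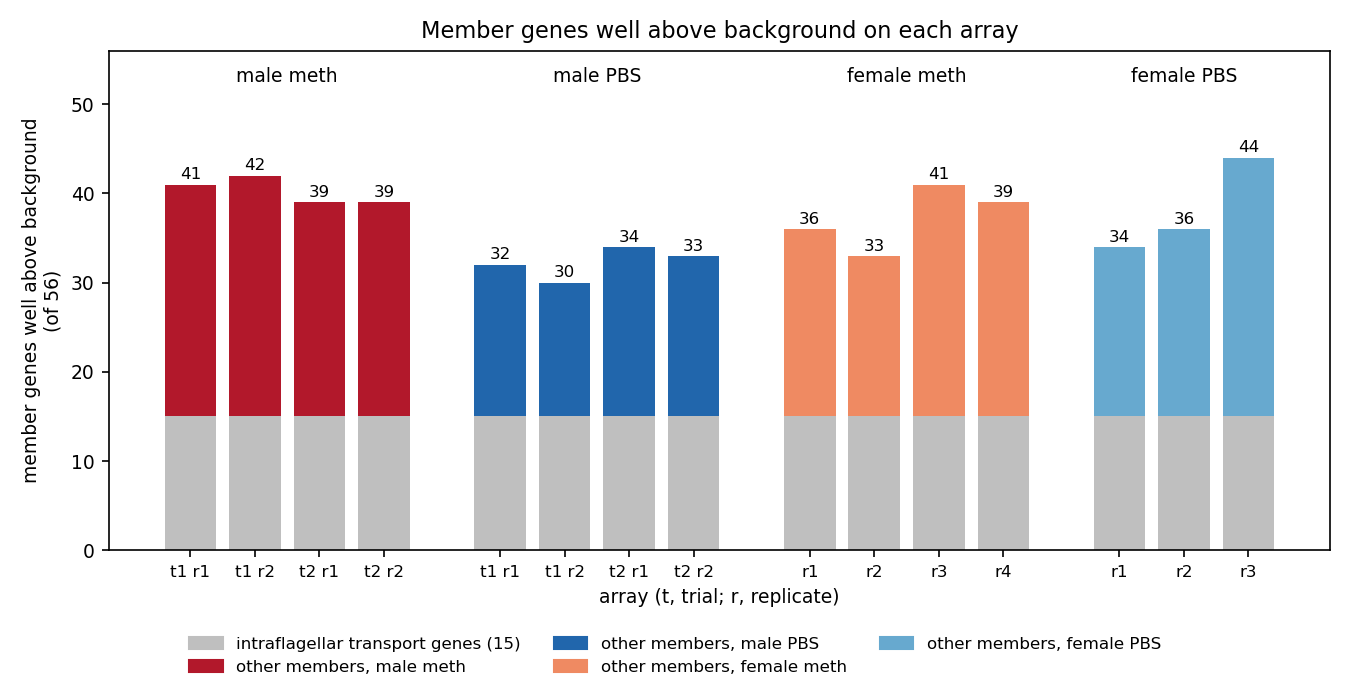
Number of the 56 member genes well above background (y axis) on each of the 15 arrays (x axis), with the 15 intraflagellar transport genes in grey and the other 41 in the colour of the group. The male meth arrays hold 39 to 42 members and the male PBS arrays 30 to 34, while the female counts run from 33 to 44.

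Meth in males: 4 members rose and 0 fell, namely Foxj1, the forkhead factor that switches on the motile cilium programme, Tmem212, a membrane protein gene active in multiciliated cells, Dynlrb2, a light chain of cytoplasmic dynein abundant in ciliated cells, and Dnali1, a light chain of axonemal inner dynein arms. These 4 were well above background on all 4 male meth arrays and on none of the 4 male PBS arrays, as were 57 of all 18350 genes. In bulk tissue more cells of a type and more RNA per cell cannot be told apart. In the limma fit, 4 of the 42 members tested passed an adjusted p of 0.05 in males, where 1.34% of all 14217 genes tested did (190 genes). With no filter on dim probes, so that all 56 members enter, the same 4 genes passed, where 0.616% of the 18350 genes did (113 genes). A member with signal in the male meth hearts alone could enter the filter only by differing, so the 4 of 42 is not support for a change of the group. At an unadjusted p under 0.05 the count was 13 members, among 1874 of all genes tested.

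On the male meth arrays the normalized log2 signal of Foxj1 was -4.06, -2.60, -4.11 and -3.58, on the male PBS arrays -7.03, -7.08, -7.19 and -6.97, on the female meth arrays -7.18, -6.77, -7.47 and -7.81, and on the female PBS arrays -7.00, -7.37 and -7.90. All 4 male meth values lie above the other 11, with trial 1 replicate 2 the highest, and those 11 are not well above background. Foxj1 was at least 2.64-fold higher in males given meth than in males given PBS (adjusted p = 0.000141). A bound sets the mean of the bright group against the mean of, per array, the lowest signal well above background or the probe's own signal where that is higher. Measured means were -3.59 (SD 0.70, n = 4) and -7.07 (SD 0.09, n = 4), and their fitted difference of 3.48 (SE 0.31) is no fold, since the PBS side is background.

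For Tmem212 the male meth arrays gave -3.48, -1.43, -3.46 and -2.82, the male PBS arrays -6.87, -6.99, -7.06 and -6.86, the female meth arrays -7.05, -7.04, -7.70 and -7.61, and the female PBS arrays -6.86, -7.24 and -7.78. The pattern is that of Foxj1: only the 4 male meth arrays are well above background, and trial 1 replicate 2 is the highest of them. The bound for males was at least 4.56-fold (adjusted p = 0.000141, fitted difference 4.15, SE 0.37).

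Dynlrb2 differs from both in that it was well above background in the female hearts too. Its normalized log2 signals were -1.88, -0.19, -2.16 and -1.50 in males given meth, -5.29, -5.74, -5.24 and -5.07 in males given PBS, -4.24, -4.56, -5.14 and -4.50 in females given meth, and -4.62, -4.22 and -4.81 in females given PBS. All 7 female arrays were well above background and no male PBS array was, while the male meth values lie above all others. The background limit differs between arrays: female meth replicate 3 at -5.14 passed it, and male PBS trial 2 replicate 2 at -5.07 did not. Dynlrb2 was at least 11.7-fold higher in males given meth than in males given PBS (adjusted p = 0.000151, fitted difference 3.90, SE 0.35). Its second tested probe also passed, with a fitted difference of 3.79.

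Dnali1 is the weakest of the 4. It read -5.09, -3.45, -4.90 and -4.60 in males given meth, -7.14, -7.16, -6.14 and -6.92 in males given PBS, -6.97, -6.09, -6.85 and -7.49 in females given meth, and -7.12, -5.87 and -5.63 in females given PBS. Every male meth array lies above the other 11, of which only female PBS replicate 3 is well above background. In males it was at least 1.39-fold higher with meth (adjusted p = 0.0259, fitted difference 2.33, SE 0.43), and with no filter the adjusted p was 0.0476. Without 1 array its adjusted p passed 0.05 in 5 cases: 0.0598 without male meth trial 1 replicate 2, 0.0857 without male PBS trial 1 replicate 1, 0.0868 without male PBS trial 1 replicate 2, 0.0609 without male meth trial 2 replicate 2 and 0.0855 without male PBS trial 2 replicate 2. It was 0.0640 with replicate numbers as a block, 0.565 with low signals raised to a floor and 0.167 with trial 1 arrays only, and 0.0172 to 1.00 over the 27 alternatives fitted with limma. For each of the 4 genes the exact permutation test over the male arrays, two-sided, gave p = 0.0286. That is the smallest p that 4 against 4 arrays allow. The genes were picked for passing on these same arrays, so this p adds no support for them. Male groups without overlap, which give this p, occurred in 869 of 18350 genes with meth higher and in 948 with meth lower.

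The signals behind these values are low. Before the shift, the processed signal on the male meth arrays was 20.1, 57.5, 22.3 and 26.0 for Foxj1, and 30.0, 129, 35.0 and 44 for Tmem212. For Dynlrb2 it was 91.2, 304, 85.9 and 110, and for Dnali1 9.89, 31.8, 12.8 and 12.8. In all 4 genes trial 1 replicate 2 is the highest array. A background correction that adds an offset of 50, larger than most of these signals, ended all 4 calls: the adjusted p became 1.00 for Foxj1, 0.718 for Tmem212, 0.0727 for Dynlrb2 and 1.00 for Dnali1. Over the 27 alternatives fitted with limma in which they were tested, those were the highest adjusted p of Foxj1, Tmem212 and Dynlrb2, the lowest were 1.72e-05, 3.88e-05 and 4.16e-05, and each of these 3 calls held in 26, leaving out any 1 array included. A filter on all 15 arrays leaves the 4 genes untested. The study's methods name a paired test and a threshold of p under 0.05, without naming an adjustment. Paired here by trial and replicate number and left unadjusted, that test called 17 members in males, among 2442 of all 14217 genes tested. After Benjamini-Hochberg adjustment it called 0 members and 0 genes. An unpaired test, which the methods do not name, called 13 members among 2138 genes, and 0 among 9 after adjustment.

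**Figure D2:**
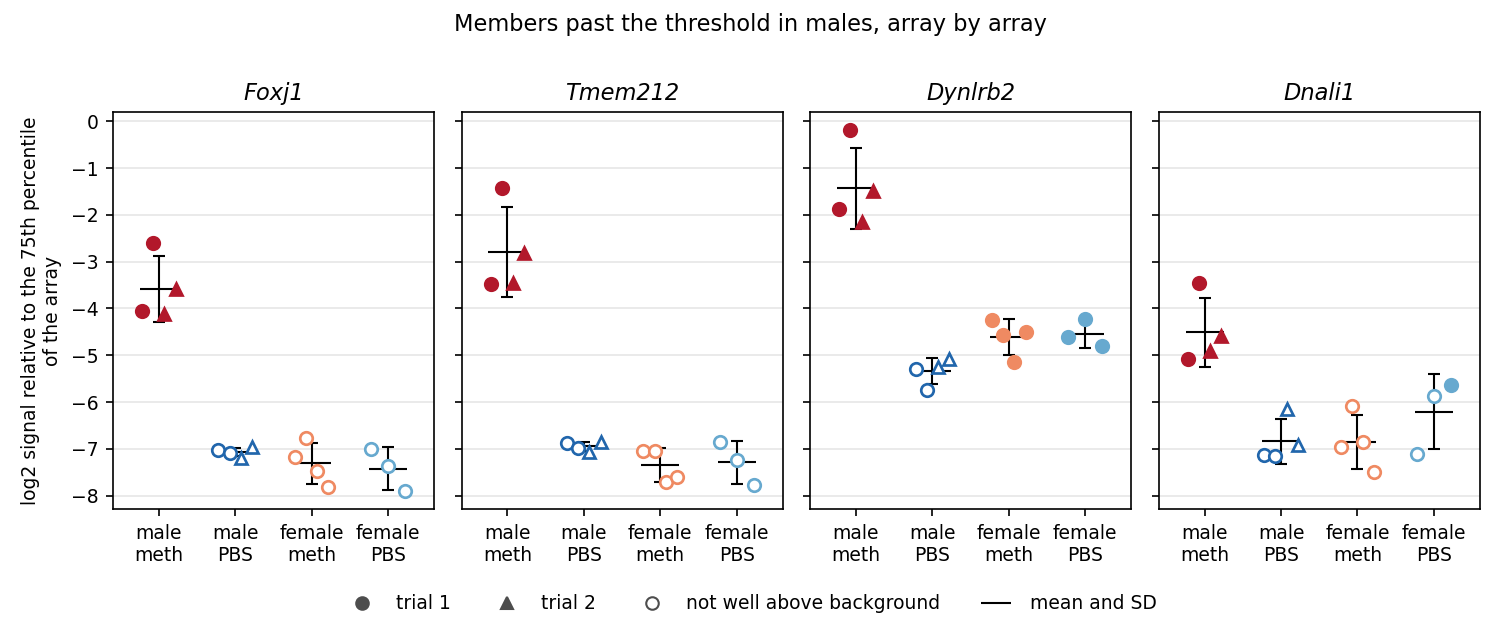
Normalized log2 signal (y axis, relative to the 75th percentile of the array) of Foxj1, Tmem212, Dynlrb2 and Dnali1 on every array by group (x axis), with circles for trial 1, triangles for trial 2, open symbols for signals not well above background, and bars for mean and SD. The male meth means are -3.59, -2.80, -1.43 and -4.51, and every male meth array lies above every other array of the same panel.

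The promoters of the members that rose are shown because the factors of this programme have known binding motifs. These genes were picked for passing in the same comparison, and whether a shared factor acts on them was not tested. RefSeq promoters of 300 bases, most of them ahead of the start, were available for 48 of the 56 members, and for Tmem212, Dynlrb2 and Dnali1 among those that rose. Build GRCm38.p6 places the window of Tmem212 at chr3:27896319-27896618, minus strand, that of Dynlrb2 at chr8:116504765-116505064, plus strand, and that of Dnali1 at chr4:125065608-125065907, minus strand. Drc1, from the list of other motile cilium genes below, encodes a nexin-dynein regulatory subunit and lies at chr5:30281143-30281442, plus strand. Capitals mark the X-box half-site, GTTGCC or GGCAAC on the other strand, a motif that Rfx factors bind.
Tmem212: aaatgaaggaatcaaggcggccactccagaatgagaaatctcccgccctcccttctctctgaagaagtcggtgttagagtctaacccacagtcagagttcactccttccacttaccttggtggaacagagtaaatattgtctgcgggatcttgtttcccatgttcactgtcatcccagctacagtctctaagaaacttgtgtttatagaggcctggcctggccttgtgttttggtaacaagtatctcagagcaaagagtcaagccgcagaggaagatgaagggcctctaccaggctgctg
Dynlrb2: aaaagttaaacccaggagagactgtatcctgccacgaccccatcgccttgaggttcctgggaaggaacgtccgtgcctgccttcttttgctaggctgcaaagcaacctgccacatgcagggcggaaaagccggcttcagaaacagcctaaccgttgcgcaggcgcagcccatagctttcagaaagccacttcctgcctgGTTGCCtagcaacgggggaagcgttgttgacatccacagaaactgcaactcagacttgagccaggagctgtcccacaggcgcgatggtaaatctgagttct
Dnali1: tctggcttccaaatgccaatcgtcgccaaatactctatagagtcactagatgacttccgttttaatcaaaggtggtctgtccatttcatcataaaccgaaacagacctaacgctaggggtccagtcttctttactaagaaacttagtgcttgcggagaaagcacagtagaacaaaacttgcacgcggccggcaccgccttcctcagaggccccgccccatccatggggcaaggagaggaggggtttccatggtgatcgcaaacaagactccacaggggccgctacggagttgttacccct
Drc1: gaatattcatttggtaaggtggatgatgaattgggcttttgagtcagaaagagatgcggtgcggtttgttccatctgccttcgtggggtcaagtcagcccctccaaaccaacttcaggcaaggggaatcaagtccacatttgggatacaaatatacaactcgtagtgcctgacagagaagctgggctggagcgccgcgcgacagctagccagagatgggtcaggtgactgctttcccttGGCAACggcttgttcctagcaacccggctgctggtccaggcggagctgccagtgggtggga
The half-site starts 51 bases before the start in Dynlrb2 and 11 before it in Drc1, and these letters are not in the windows of Tmem212 and Dnali1. Drc1 is shown as a list gene with the half-site, and the windows of Ak7 and Cfap52, named from the same list below, do not hold it. Searched on both strands, the half-site lies in 33.3% of the 54 member promoters and in 12.5% of all 32851 promoters. The share was 38.5% of the 13 promoters of intraflagellar transport members and 31.7% of the 41 of other members. Among lists outside the rule it was 46.9% of 64 promoters of other motile cilium genes, 37.2% of 43 promoters of primary cilium genes and 6.67% of 15 promoters of airway secretory genes. The forkhead motif TGTTTAC, or GTAAACA on the other strand, lies in 1.85% of the member promoters and 3.65% of all promoters. It lies in 7.81% of the promoters of other motile cilium genes and in 0 of the 3 promoters of members that rose. A match is a run of letters and not a bound site.

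**Figure D3:**
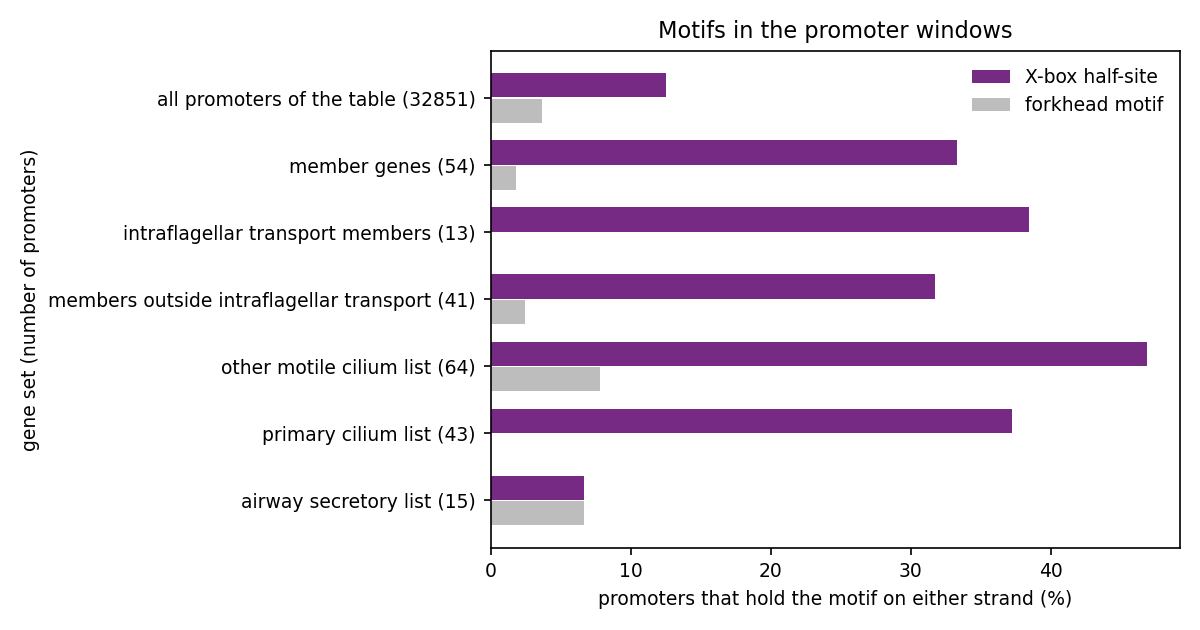
Share of promoters (x axis, percent) that hold the X-box half-site or the forkhead motif on either strand, for all promoters, the members and 3 lists (y axis, with the number of promoters). The half-site share is 33.3% for the members, 12.5% for all promoters and 46.9% for other motile cilium genes.

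Of the other regulators, Rfx2 and Rfx3 had a probe, and neither passed the threshold in males or in females. No test compared them with Foxj1. Rfx2, which acts beside Foxj1 on cilium genes, was well above background on 2 male meth, 1 male PBS, 3 female meth and 1 female PBS arrays. Its fitted difference was 0.50 for males (adjusted p = 0.641), while females had 0.42 (adjusted p = 0.812), both in part from background. With 1 array left out the male value ran from 0.35 (without male PBS trial 2 replicate 1) to 0.78 (without male PBS trial 1 replicate 1). The female value ran from 0.0635 (without female PBS replicate 2) to 0.894 (without female PBS replicate 3). Rfx3, the related factor, was well above background on 1 male meth, 0 male PBS, 2 female meth and 1 female PBS arrays, with a fitted difference of 0.10 in females (adjusted p = 0.934), which was -0.0463 without female meth replicate 1, -0.0465 without female PBS replicate 1 and 0.29 without female meth replicate 3. Its male means were -5.42 with meth and -5.40 with PBS (adjusted p = 0.982).

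Among the 9 axonemal dynein heavy chains, the motor subunits, 5 were tested and 0 passed in limma, with 2 at an unadjusted p under 0.05, Dnah6 and Dnah9. Dnah6 was well above background on 2 of 4 male meth arrays, 0 male PBS, 1 female meth and 1 female PBS, and read -4.80, -4.74, -5.58 and -5.01 in males given meth. In males given PBS it read -6.60, -6.26, -5.94 and -6.31, so the groups do not overlap, but the test was not passed (adjusted p = 0.249). Dnah9, a motor of outer arms, had male means of -3.86 with meth (4 of 4 arrays well above background) and -4.81 with PBS (2 of 4). Its adjusted p was 0.208, and it is named for that count after its values were seen. Dnah2, an inner arm motor, was well above background on 4 male meth, 2 male PBS, 1 female meth and 3 female PBS arrays, so its differences rest in part on background: 0.73 between the male groups (adjusted p = 0.536) and -0.89 between the female groups (adjusted p = 0.551). The female value was -0.377 without female meth replicate 4 and -1.11 without female meth replicate 1, and 0.0305 with the background correction. Dnah8, the heavy chain with the highest mean signal, had group means between -4.81 and -4.04, with 1 of 4 male PBS arrays well above background. Dnah5, picked after its values were seen, was not among the 5 tested. A probe of lower mean signal read -5.69, -3.50, -7.22 and -4.52 in males given meth. In males given PBS it read -7.03, -7.08, -7.15 and -6.97. By any probe Dnah5 was well above background on 2 male meth, 0 male PBS, 1 female meth and 1 female PBS arrays.

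Dnaic1, the intermediate chain of outer arms, was well above background on all 15 arrays and differed by -0.07 in males and 0.06 in females. Without male PBS trial 1 replicate 2 the male value was 0.01, and without male meth trial 2 replicate 2 it was -0.12. Without female PBS replicate 2 the female value was -0.04, and the highest, 0.19, came with female PBS replicate 3 left out. Of the 3 light chains, Dnali1 is given above, and Dnal4, the one with the highest mean signal, had group means between 2.24 and 2.41. Adjusted p for Dnaic1 was 0.843 in males and 0.937 in females. For Dnal4 it was 0.639 and 0.960.

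The 3 tektins, filament proteins of the doublet wall, were well above background on all 15 arrays, and 0 passed in limma, with 1, Tekt1, at an unadjusted p under 0.05 in males. Tekt1 read -3.16, -1.92, -3.67 and -3.11 in males given meth and -3.72, -3.90, -4.06 and -4.16 in males given PBS. These groups do not overlap, and trial 1 replicate 2 is again the highest. The difference of 0.99 (SE 0.31) did not pass (adjusted p = 0.183). In females Tekt1 differed by -0.13 (adjusted p = 0.946), or 0.0817 without female meth replicate 3 and -0.35 without female meth replicate 2, and Tekt4, the tektin with the highest mean signal, had group means between -1.62 and -1.31.

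Of the 6 radial spoke genes 3 were tested and 0 passed in limma, with 1, Rsph9, at an unadjusted p under 0.05 in males. Rsph14 was well above background on 2 male meth, 0 male PBS, 2 female meth and 1 female PBS arrays (male adjusted p = 0.405). In females it differed by 0.07 (adjusted p = 0.986), in part from background, and by -0.53 without female PBS replicate 2 and 0.72 without female PBS replicate 3. Rsph3a, the spoke gene with the highest mean signal, had group means between 5.36 and 5.46.

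The 12 genes matched by Spag and Spef are mixed: Spag6, Spag16, Spag17, Spef1 and Spef2 encode parts or partners of the central pair, whereas Spag5 is a spindle protein and Spag9 a scaffold of kinase signalling. Of the 6 tested, 0 passed in limma, with 1, Spag5, at an unadjusted p under 0.05 in males and 2, Spag1 and Spag9, in females. Spag5 differed by 0.72 in males (adjusted p = 0.227), and Spag1, a dynein arm assembly factor, by 0.27 in females (adjusted p = 0.447), or 0.141 without female PBS replicate 1. Spag9, the brightest of them, had group means between 3.42 and 3.61. Ccdc39, which sets the axonemal repeat length, was well above background on 1 array, female PBS replicate 2, and was not tested. Without the filter its male adjusted p was 0.495.

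All 15 intraflagellar transport genes, which build both kinds of cilium, were tested and 0 passed in limma, with 3 at an unadjusted p under 0.05 in males and 1 in females. Those are Ift46, Ift80 and Ift140 in males and Ift52 in females, of which Ift46, Ift80 and Ift52 were picked after their values were seen. Their male differences ran from -0.15 for Iftap, the brightest, to 0.32 for Ift140, with a median of 0.10. Ift140, a subunit of the retrograde complex, had an adjusted p of 0.0892, which was 0.0405 with slide as a block and 0.0405 to 0.932 over the limma alternatives. The largest female difference was -0.28 for Ift122 (adjusted p = 0.575), which was -0.183 without female meth replicate 4 and -0.151 without female PBS replicate 2. Hydin, a large protein of the central pair, was well above background on all 15 arrays and differed by 0.39 between the male groups (adjusted p = 0.275) and by 0.25 between the female groups (adjusted p = 0.638), or 0.125 without female PBS replicate 2.

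Over all 56 members with no filter, the median difference in males was 0.15, against -0.04 over all 18350 genes. Against background a fitted difference is no fold. With each probe that was nowhere well above background in a group set to its bound, or to 0 where it has none, the member median was 0.0046 and that of all genes 0. In females the medians were 0.06 for the members and 0.02 for all genes, and 0.0025 and 0 with such probes at their bound. Over the members tested the female median was also 0.06, and as low as 0.013 with 1 array left out (female PBS replicate 3).

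For 13 of the 56 members all 4 male meth values were above all 4 male PBS values, where this held for 4.74% of all 18350 genes (869 genes). All male meth arrays lay below all male PBS arrays for 1 member, Spag16, where this held for 5.17% of genes (948 genes). Spag16 is named for that count after its values were seen and was well above background on no array. Among the 29 members well above background on all arrays the male meth group lay above for 5, Ift80, Ift140, Ift172, Rsph9 and Tekt1, and below for 0. Over the 12601 genes well above background on all arrays the shares were 5.48% (691 genes) above and 6.36% (801 genes) below. Ift172 and Rsph9 are likewise named after their values were seen. None of these 29 members passed the limma test in males, with 6 at an unadjusted p under 0.05, where of those 12601 genes 82 passed as higher and 40 as lower, and 1608 had such a p. The lowest adjusted p among them was 0.0586, of Rsph9, and Rsph9 passed when female meth replicate 2 or female meth replicate 4 was left out and with the mean over the probes of a gene.

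The array of male meth trial 1 replicate 2 gave the highest male meth value for 32 of the 56 members (57.1%) and for 34.1% of all genes. Among the 29 members well above background on all arrays it did so for 14 (48.3%), against 34.4% of all such genes.

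**Figure D4:**
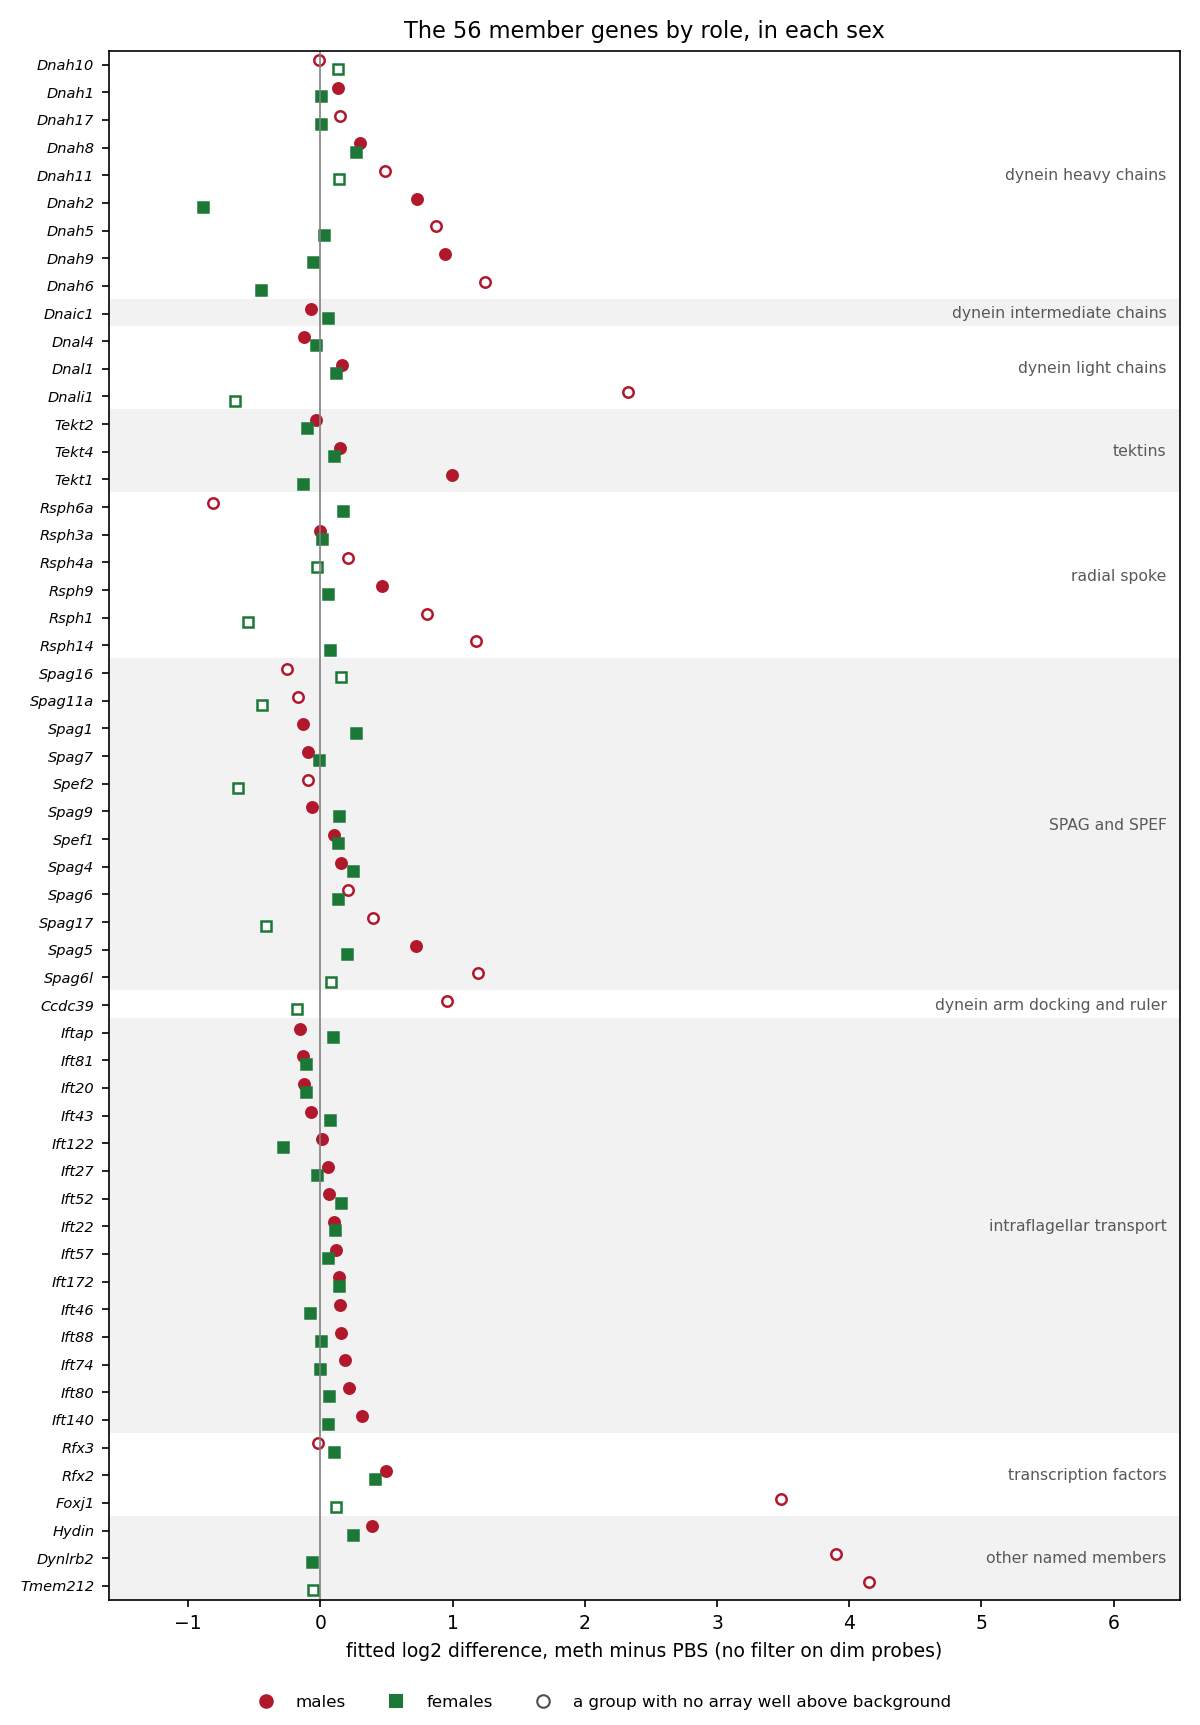
Fitted difference of the normalized log2 signal between meth and PBS (x axis, log2, no filter) for the 56 members by role (y axis), in males (red circles) and females (green squares), with open symbols where a group has no array well above background, so that the value is no fold. Foxj1, Tmem212, Dynlrb2 and Dnali1 are farthest right in males at 3.48, 4.15, 3.90 and 2.33, and the female values of all members lie between -0.89 and 0.42.

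Meth in females: 0 members passed the limma test, and the values of Foxj1 and Tmem212 stayed below the background limit on all 7 female arrays. Over all genes tested 0.443% passed in females (63 genes), and with no filter 0.153% of 18350 did (28 genes), again with 0 members. At an unadjusted p under 0.05 there were 3 members, Ift52, Spag1 and Spag9, among 1112 of all genes tested. The methods' paired test, paired by replicate number, called 4 members among 1265 of all genes at an unadjusted p under 0.05, and an unpaired one 2 among 910. After Benjamini-Hochberg adjustment both left 0 members and 0 genes. Dynlrb2, the 1 gene of the 4 that was measured in every female heart, differed by -0.06 (SE 0.38, adjusted p = 0.98). That value was 0.02 after a shift by the array median and 0.03 after quantile normalization. Leaving out female meth replicate 3 gave 0.12, leaving out female PBS replicate 2 gave 0.10, and leaving out female PBS replicate 3 gave -0.19. For Dnali1 the only female array well above background was a PBS array. All female meth arrays lay above all female PBS arrays for 2 of the 56 members, Ift52 and Spag9, and below for 0, where this held for 3.37% of genes (619 genes) and 2.67% (490 genes). The same 2 genes are 2 of the 29 members well above background on all arrays, where the shares of genes were 4.33% above (545 genes) and 2.74% below (345 genes).

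Whether males and females responded differently to meth was tested directly. The male difference exceeded the female for Tmem212, Dynlrb2 and Foxj1, with adjusted p of 0.0081, 0.00827 and 0.0102, and 0 members went the other way. Foxj1 and Tmem212 were well above background on the male meth arrays alone, so their female difference and male PBS side are background. They entered the filter only through those arrays, so the count of 3 is not support for a change of the group. Of all 14217 genes tested 0.155% passed this test (22 genes), and 13 of 42 members had an unadjusted p under 0.05, among 1155 of all genes tested. Each of the 3 calls held without any 1 array. They were lost with replicate numbers as a block, where the adjusted p was 0.0774 for Tmem212, 0.128 for Dynlrb2 and 0.0774 for Foxj1. With trial 1 arrays only it was 0.114, 0.0637 and 0.131. With low signals raised to a floor Dynlrb2 alone kept its call, and with the background correction none did. Over the limma alternatives the adjusted p ran from 0.00141 to 1.00 for Tmem212 and Dynlrb2 and from 0.0028 to 1.00 for Foxj1. Dnali1 did not pass (adjusted p = 0.159). Set against females given meth, males given meth were at least 6.04-fold higher for Tmem212, 3.49-fold for Foxj1 and 1.84-fold for Dnali1, bounds with no test of their own.

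Given PBS, the hearts of males and females did not differ past the threshold in any member in limma: 0 passed, where 0.549% of all genes tested passed (78 genes). At an unadjusted p under 0.05 there were 7 of 42 members, among 2179 of all 14217 genes tested. An unpaired test, which the study's methods do not name, called 5 members among 1977 genes at an unadjusted p under 0.05, and 0 among 10 after adjustment. Dynlrb2 was well above background on the 3 female PBS arrays and on no male PBS array, but its difference did not pass (adjusted p = 0.464). Its bound of 1.35-fold toward females is thus no called difference. Background limits also differ: the lowest signal well above background was -5.74 on female PBS replicate 3, on slide 4, and -5.15 to -4.90 on the male PBS arrays.

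Trials and slides gave the male values separately. Within slides 1, 2 and 3, each with both treatments, the male difference of log2 signals was 2.97, 4.49 and 3.24 for Foxj1. It was 3.38, 5.56 and 3.82 for Tmem212, 3.41, 5.54 and 3.33 for Dynlrb2, and 2.05, 3.70 and 1.78 for Dnali1. All 12 values are above 0, but none is a measured size, since the PBS side of each is background. On the meth side slide 2 holds trial 1 replicate 2, the highest array of each gene. By trial the adjusted p was 0.00558 and 0.0109 for Foxj1, the same for Tmem212, 0.00237 and 0.0109 for Dynlrb2, and 0.0824 and 0.285 for Dnali1. Slide 3 and its scan session hold males only and slide 4 and its session females only, so outside slides 1 and 2 sex cannot be told apart from slide and scan session. For Dynlrb2 in females the differences within slides 1, 2 and 4 were 0.38, -0.34 and -0.01.

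Other motile cilium genes, listed outside the symbol rule, were 72 with a probe, 46 of them tested. Of the 72, 33 were well above background on all 7 PBS arrays and 25 on none, a smaller share on all arrays than the 12707 of all 18350 genes. In males given meth 8 of the 46 rose and 1 fell, where 148 of all 14217 genes tested rose and 42 fell. As with the members, a gene with signal in the male meth hearts alone could enter the filter only by differing. The 8 of 46 is thus not support for a change of the list. With no filter 4 of the 72 rose and 0 fell, where 113 of all 18350 genes passed. At an unadjusted p under 0.05 there were 25 in males, among 1874 of all genes tested. In females 0 passed in limma, with 3 at an unadjusted p under 0.05, among 1112 of all genes tested. Ak7, an adenylate kinase of cilia, was at least 2.43-fold higher in males with meth (adjusted p = 0.0166). For Cfap52 the bound was at least 2.24-fold (adjusted p = 0.0105) and for Drc1 at least 3.30-fold (adjusted p = 0.00513). All 3 were well above background on the 4 male meth arrays and on no other array. The adjusted p of Ak7 was 0.0619 without male meth trial 1 replicate 2, 0.0665 without male PBS trial 1 replicate 2, 0.0545 without male meth trial 2 replicate 2, 0.0642 without male PBS trial 2 replicate 1 and 0.0522 without male PBS trial 2 replicate 2. It was 0.0809 with replicate numbers as a block and 0.161 with the floor, and 0.00534 to 1.00 over the limma alternatives. Cfap52 lost its call with the floor (0.0932). With trial 1 arrays only the adjusted p was 0.264 for Ak7, 0.320 for Cfap52 and 0.0887 for Drc1, and with the background correction 1.00 for all 3.

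The count of 8 was 5 with the floor or the filter on all 15 arrays, 4 with replicate numbers as a block, no filter or a shift by the array median, 1 with trial 1 arrays only and 0 with the background correction. It also moved with single arrays. It was 5 without male meth trial 1 replicate 1, male meth trial 2 replicate 1, male PBS trial 2 replicate 2, female meth replicate 3, female PBS replicate 1 or female PBS replicate 3. It was 3 without male meth trial 1 replicate 2 or male PBS trial 1 replicate 1, and 2 without male PBS trial 1 replicate 2, male meth trial 2 replicate 2 or male PBS trial 2 replicate 1. The gene that fell was Meig1, needed for sperm formation and picked after its values were seen, by 0.80 (adjusted p = 0.0279). Its call was lost without male meth trial 1 replicate 2 (0.0867), male PBS trial 1 replicate 1 (0.0734), male PBS trial 1 replicate 2 (0.0804), male meth trial 2 replicate 1 (0.0722), male PBS trial 2 replicate 1 (0.0930) or male PBS trial 2 replicate 2 (0.0945). It was also lost with no filter (0.0536), no trial term (0.0807), trial 1 arrays only (0.358) and the background correction (0.455), with 0.00688 the lowest over the limma alternatives. The summed signal of the list, of which Mlf1 makes up 33.9%, was 77.0, 75.1, 68.5 and 70.4 in males given meth and 77.4, 76.6, 72.7 and 72.3 in males given PBS, in multiples of the 75th percentile. In females it was 88.9, 86.5, 76.4 and 77.2 with meth and 81.4, 82.5 and 75 with PBS, and the treatments overlap in both sexes. Between arrays of equal number, which share a slide, the sum was lower with meth in all 4 male pairs and higher in all 3 female pairs, which was not tested. The median difference of the tested genes was 0.35 in males and 0.06 in females. With no filter and dim probes at their bound it was 0 in both.

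Markers of other cell types moved in the same arrays, and their part in the cilium result was not tested. Of the 19 airway secretory genes with a probe, all tested, 16 rose in males given meth, or 10 with the background correction and 2 with the filter on all 15 arrays. Bpifa1, Scgb1a1, Scgb3a1, Scgb3a2, Reg3g, Cyp2a4, Ltf and Tspan1, all on this list, are among the highly changed genes the study reported by array. The list was chosen with such results known, so the count of 16 is no independent support. Over all 14217 genes tested 148 rose in males, the count to set beside this list and the epithelial and alveolar lists below. A gene of these lists with signal in the male meth hearts alone could enter the filter only by differing. The counts are thus not support for a change of a list. The summed signal of the list was 70.9, 233, 44.5 and 87.7 in males given meth and 2.37, 1.96, 1.52 and 1.57 in males given PBS. Females had 5.93, 2.59, 2.91 and 6.29 with meth and 2.83, 4.55 and 3.61 with PBS. The male meth arrays lie above all others, and trial 1 replicate 2, highest for Foxj1, Tmem212, Dynlrb2 and Dnali1, is the highest here too. Bpifa1, an antimicrobial protein of the airway lining, has the highest signal of the list, 30.3% of the sum over all 15 arrays, most of which comes from the male meth arrays. It was at least 898-fold higher in males with meth (adjusted p = 2.92e-06). Cyp2a5 was at least 272-fold higher. Scgb1a1, the defining product of club cells, was well above background on all male meth, 2 of 4 male PBS and all 7 female arrays. It was higher in males with meth (adjusted p = 2.92e-06), with means of 3.94 and -5.35, and since part of the PBS side is background the size of that rise is not measured. Of the 19 genes, 4 were well above background on all 7 PBS arrays and 6 on none.

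In females 2 airway secretory genes rose with meth. The bound for Bpifa1, on all 4 meth arrays and no PBS array, was at least 13.3-fold (adjusted p = 0.0112, and 0.0569 without female PBS replicate 1). For Reg3g, an antimicrobial lectin seen with meth in 3 of 4 hearts and with PBS in 0, it was at least 3.49-fold (adjusted p = 0.0413). With replicate numbers as a block the adjusted p was 0.0732 and 0.128, and over the limma alternatives it ran from 0.00881 to 0.453 for Bpifa1 and from 0.0214 to 0.952 for Reg3g, whose call held in 7 of 27. The call of Reg3g held without female meth replicate 2, female meth replicate 3 or male meth trial 1 replicate 2, and was lost without each other array, with adjusted p of 0.0506 to 0.148. The male response exceeded the female past the threshold for 9 of the 19 genes, where 22 of all 14217 genes passed in either direction. Since the list holds genes the study reported as changed, this count is no independent support either. Among the 9, Scgb1a1, Cyp2a5 and Cyp2a4 had adjusted p of 0.000147, 0.00353 and 0.000897, or 0.0502, 0.0774 and 0.0765 with replicate numbers as a block. The highest of their adjusted p over the limma alternatives are these block values, and the lowest were 6.62e-05, 0.00153 and 0.000557. Given PBS, Scgb1a1 was lower in males than in females (limma adjusted p = 0.0019). The median difference over the airway secretory list was 4.98 in males and 0.49 in females, or 4.06 and 0.39 with dim probes at their bound.

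Of 18 epithelial genes 10 were tested, and 4 rose in males given meth, or 2 with the filter on all 15 arrays and 1 with the background correction or trial 1 arrays only: the keratins Krt15 and Krt18, the adhesion protein Cdh1 and the tight junction protein Cldn7. Krt15 was at least 7.21-fold and Cdh1 at least 1.53-fold higher (adjusted p = 0.000138 and 0.00246, Cdh1 seen on 3 of 4 male meth arrays), and Cldn7 rose by 1.62 (adjusted p = 0.0061, and 0.0641 with replicate numbers as a block). Cdh1 lost its call with the floor (0.464). With trial 1 arrays only the adjusted p was 0.0883 for Cdh1 and 0.114 for Cldn7, and with the background correction 0.296 for Krt15, 1.00 for Cdh1 and 0.898 for Cldn7. The lowest over the limma alternatives was 2.68e-05, 0.00168 and 0.00332. In females 0 passed in limma, with 0 at an unadjusted p under 0.05. Summed signals were 5.36, 8.21, 4.46 and 5.78 in males given meth, 2.43, 3.06, 3.61 and 3.86 in males given PBS, 4.47, 3.08, 2.99 and 4.08 in females given meth, and 3.57, 3.93 and 4.31 in females given PBS. The male meth arrays lie above the male PBS arrays, and Krt18 makes up 34.2%. The defining epithelial genes Epcam and Nkx2-1, picked after their values were seen, were well above background on 1 and 0 arrays, and 7 of the 18 genes were well above background on all PBS arrays.

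Of 10 alveolar genes 8 were tested, and Aqp5, Sftpd and Sftpa1 rose in males given meth, with bounds of 8.06-fold, 3.23-fold and 1.74-fold (adjusted p = 0.00187, 0.00695 and 0.026, Sftpa1 seen on 3 of 4 male meth arrays). The call of Sftpa1 was lost without male meth trial 1 replicate 2 (0.0848), male PBS trial 1 replicate 1 (0.0646), male PBS trial 1 replicate 2 (0.0882), male meth trial 2 replicate 2 (0.0795), male PBS trial 2 replicate 1 (0.0894) or male PBS trial 2 replicate 2 (0.0738). It was also lost with replicate numbers as a block (0.0581), and its adjusted p ran from 0.0115 to 1.00 over the limma alternatives. With the floor the adjusted p was 0.122 for Sftpd and 0.407 for Sftpa1, with trial 1 arrays only 0.120 and 0.348, and with the background correction 0.315 for Aqp5, 0.820 for Sftpd and 1.00 for Sftpa1. The count of 3 was 1 with the floor or trial 1 arrays only, and 0 with the background correction or the filter on all 15 arrays. The lowest adjusted p was 0.000956 for Aqp5 and 0.00328 for Sftpd. In females Sftpc, the surfactant protein that marks alveolar type II cells, fell by 2.08 (adjusted p = 0.0143, 0.0666 with replicate numbers as a block, 0.0533 with trial 1 arrays only, 0.0059 to 0.607 over the limma alternatives). Sftpc was well above background on all 7 female arrays and on no male array. Sums were 1.25, 2.80, 2.08 and 2.41 in males given meth, 1.70, 1.76, 2.09 and 2.10 in males given PBS, 1.83, 1.82, 2.58 and 2.45 in females given meth, and 1.94, 2.50 and 2.45 in females given PBS. These groups overlap. Lamp3 makes up 54.2%, 4 of the 10 genes were well above background on all PBS arrays, and Sftpb, picked after its values were seen, on none.

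**Figure D5:**
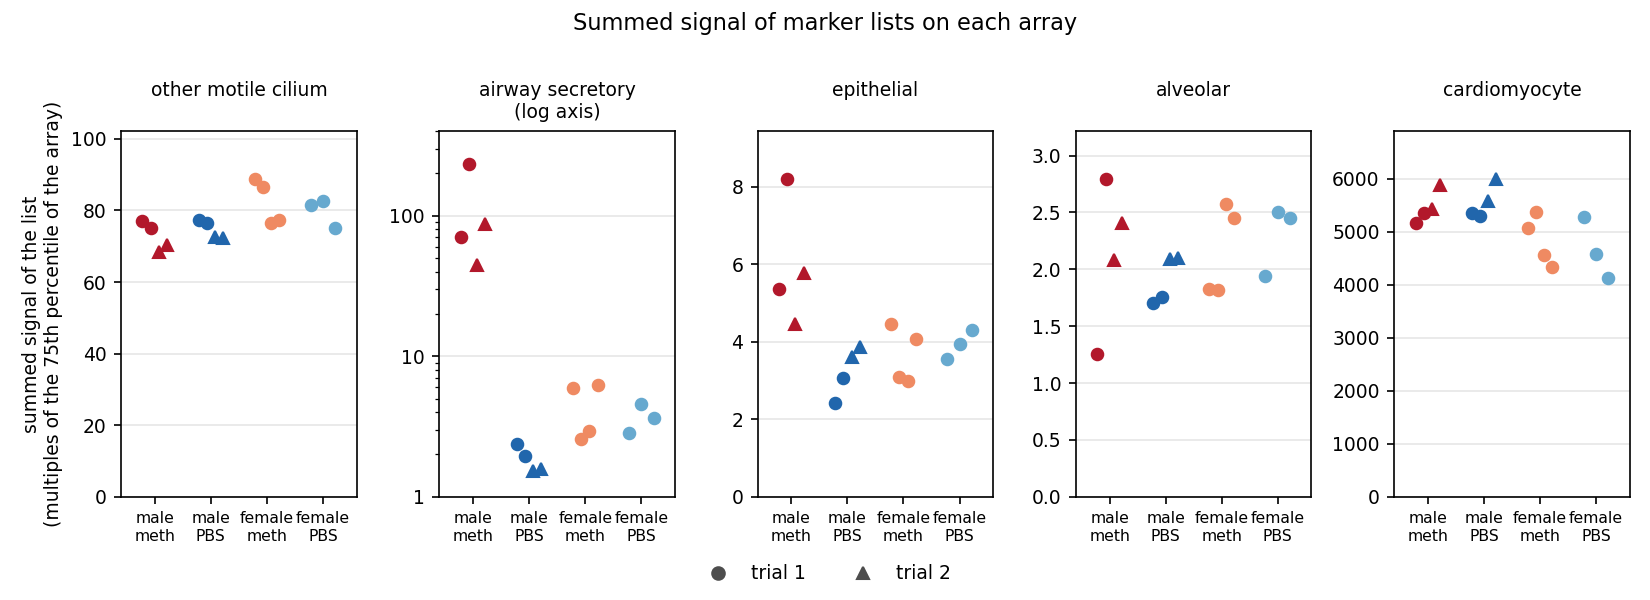
Summed signal (y axis, multiples of the 75th percentile of the array, log axis for the airway secretory list) of 5 marker lists on every array by group (x axis), with circles for trial 1 and triangles for trial 2. The airway secretory sums are 44.5 to 233 in males given meth and 1.52 to 2.37 in males given PBS, while the cardiomyocyte sums overlap between the treatments in each sex.

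The remaining lists had 0 genes past the threshold in limma with meth in either sex. Given here is the number tested and the number at an unadjusted p under 0.05 in males and in females. For primary cilium genes it was 41, 2 and 4, with B9d2 the brightest and 41 of 42 well above background on all PBS arrays. Male germ cell genes, of interest because the sperm tail shares the axoneme, had 11, 0 and 1, with Odf2 the brightest and 6 of 19 on all PBS arrays. Ependymal and choroid plexus genes had 4, 1 and 0, with S100b the brightest and 3 of 8 on all PBS arrays, and their defining genes Ttr, Kl and Otx2, picked after their values were seen, were well above background on 0 arrays. Tracheal cartilage genes had 6, 1 and 0, with Comp the brightest and 5 of 10 on all PBS arrays. Their summed signal was 8.17, 6.5, 25.5 and 7.25 in males given meth, 4.75, 4.15, 4.24 and 4.06 in males given PBS, 9.01, 5.5, 5.33 and 8.32 in females given meth, and 5.38, 6.08 and 6.10 in females given PBS. Mesothelial genes had 7, 3 and 0, with Msln the brightest and 7 of 7 on all PBS arrays. Their sums were 9.61, 12.0, 7.20 and 8.64 in males given meth, 5.42, 6.73, 6.69 and 6.80 in males given PBS, 10.6, 7.23, 6.66 and 9.13 in females given meth, and 7.57, 9.19 and 8.22 in females given PBS. Comp makes up 79.4% of the cartilage sum and Msln 49.1% of the mesothelial sum. In both lists the male meth sums lie above the male PBS sums, and the female sums overlap. Of the 6 cartilage genes tested 3 had a male difference above 0, and of the 7 mesothelial genes 7 did. Whether either list marks more such cells, or has a part in the cilium result, was not tested. Cardiomyocyte genes had 12, 1 and 0, and tubulin genes, the building blocks of the axoneme, 15, 5 and 0, with Tuba4a the brightest, and all of both lists on all PBS arrays. Male medians were 0.07 for primary cilium, -0.18 for male germ cell, 0.09 for ependymal, -0.04 for tracheal cartilage, 0.43 for mesothelial, -0.07 for cardiomyocyte and -0.13 for tubulin genes, against -0.02 over all genes tested.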

How the data were processed

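The intensity values are the processed signals of the green channel in the deposited scanner files, made by the authors with Agilent Feature Extraction (9.1 in the submitters' processing notes, 10.5.1.1 per the file headers). The deposited log2 values of the series table are, by comparison with those files, the log2 processed signal moved by a constant per array so that the authors' columns share a 75th percentile, and were used as an alternative only. Here, replicate spots of a probe were combined, spots the scanner called outliers were left out, and log2 signals were shifted by the 75th percentile of the array. Probes got symbols through their accession in the RefSeq table, 26918 of 41174. The 28358 probes that the scanner called well above background in 3 or more of the 15 arrays were tested with limma 3.58.1 in R 4.3.3 on group and trial as titled. Benjamini-Hochberg adjustment ran over all probes tested, and the threshold was 0.05. Other work used Python 3.11.15, numpy 2.4.6, pandas 2.3.3, scipy 1.17.1 and matplotlib 3.10.9.

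Genes named are those named singly in the symbol rule, those past the threshold, and per role the one with the highest signal and the largest difference in each sex; for other lists the highest signal and up to 3 past the threshold per comparison. The members and the lists were chosen with earlier results of these data known. The lists were other motile cilium, primary cilium, airway secretory, epithelial, alveolar, male germ cell, ependymal and choroid plexus, tracheal cartilage, mesothelial, cardiomyocyte and tubulin genes.

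Alternatives were a replicate block, slide as a block, no trial term, trial by source name, trial 1 arrays only, no filter, a filter on all 15 arrays, a floor on low signals, median shift, quantile normalization, normexp background correction with offset 50, the mean over the probes of a gene, the deposited table, the methods' paired t-test, by trial and replicate number, an unpaired t-test, and leaving out each array. The methods name a paired t-test without saying which mice were paired. Over 23808 probes, deviations from the group mean correlated between equal numbers at 0.33, 0.27, 0.26 and 0.40 in males and 0.30, 0.44 and 0.66 in females, and equal numbers share a slide. Within the male trials the correlations were -0.085 and 0.0099.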

Additional observations from a re-analysis of the deposited data

Results flagged for a closer look

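Dnah2 on female meth replicate 4 stood at a normalized log2 signal of -7.09, with the nearest other female meth array at -5.24. That signal was not well above background, as the lowest signal that was on this array stood at -5.61, so its distance is no measured difference in expression. This was the 1 far array among 56 groups of named members checked. The adjusted p for a difference between the male and female response to meth was 0.0081 for Tmem212, 0.00827 for Dynlrb2 and 0.0102 for Foxj1. With replicate numbers as a block these calls were lost, with adjusted p of 0.0774, 0.128 and 0.0774.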

How the results depend on the processing

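In males 4 members were past the threshold, and with any 1 array left out 3 to 5 members were, the fifth being Rsph9, which is not one of the 4. With the filter on all 15 arrays the count was 0, which follows from that filter since none of the 4 is measured on all arrays, and with normexp background correction it was 0. The methods' t-test, which is a paired one, left 0 after Benjamini-Hochberg and 17 at an unadjusted p under 0.05, and an unpaired t-test 0 and 13. In females, with 0 past the threshold, there were 4 paired and 2 unpaired at an unadjusted p under 0.05, and between males and females given PBS 5 unpaired. The 3 members whose response differed between the sexes became 0 with the replicate block, 0 with the filter on all 15 arrays, 1 with the floor on low signals, 0 with normexp and 0 with trial 1 arrays only. The cause of these moves was not tested. The block ended the calls named with it in the text and no other call of a member.

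Some of the differences followed over the alternatives changed sign, all but 1 of them in females. Dynlrb2 was 0.044 as the mean over its probes, 0.015 after median shift, 0.11 after normexp, 0.0254 after quantile normalization and 0.00779 with slide as a block, and -0.19 to 0.12 with 1 array left out. Rfx3 was -0.22 with the floor and -0.0465 to 0.29 with 1 array left out. Dnah2 was 0.0305 after normexp. Tekt1 was 0.23 after normexp and -0.35 to 0.0817 with 1 array left out. Rsph14 was -0.086 with the replicate block, -0.20 with the floor, -0.18 with slide as a block and -0.0204 with trial by source name, and -0.53 to 0.72 with 1 array left out. Dnaic1 was -0.0404 to 0.19 in females and -0.12 to 0.00631 in males with 1 array left out. Differences not followed this way include the male one of Rfx3, which was 0.21 in trial 1 and -0.25 in trial 2. The cause was not tested. The alternative with symbols as the array files print them was not run, because the files hold no symbol column.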
